A study of Mus musculus with 8 samples.

Results

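Interferon-stimulated genes are the genes that cells switch on when interferon reaches them, and 35 of them were followed here in mouse lungs, with wild type (WT) animals and animals that carry a DDAH1 transgene (TG). DDAH1 degrades ADMA, an endogenous inhibitor of nitric oxide synthases. The genes were chosen by symbol as known targets of type I or type II interferon, and all 35 had a row among the 23469 genes of the count table. C57BL/6 mice of both genotypes, bought as such, received 100 µg of house dust mite extract (HDM, the allergen) in 50 µl of PBS into the trachea, or the same volume of PBS alone. There were 3 doses a week over 3 weeks. Lungs were taken 24 hours after the last dose, and the RNA of the 4 mice in each of the 4 groups was pooled and sequenced as 2 libraries. Every group is therefore 1 pool, and each error and p-value below covers the spread between libraries of a pool and not the spread between mice. The promoter that drives the transgene and the age of the mice are not given in the sources used here.

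Type I interferons (the interferon-α family and interferon-β) act on nearly all cells through the receptor chains IFNAR1 and IFNAR2, and interferon-γ, the type II interferon, acts through IFNGR1 and IFNGR2. Janus kinases at these receptors phosphorylate transcription factors. STAT2 and IRF9 are parts of a complex that binds interferon-stimulated response elements (ISRE), while interferon-γ signals reach gamma-activated sites (GAS) in the promoters of its target genes. In the lung this program is best known from viral infection, and its products sense foreign nucleic acids, block viral replication and entry, and damage the vacuoles in which some pathogens live.

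The promoters of these genes were searched for ISRE and GAS. RefSeq (GRCm38.p6) promoter windows, from 250 bases before to 50 bases after the start of the transcript, were matched for 26 of the 35 genes, with 30 windows in all. The ISRE core was searched as GAAANNGAAA on both strands, so that TTTCNNTTTC also counts and overlapping matches are counted separately. It was found in 18 of the 30 windows (60.0%), against 3.44% of the 32851 promoter windows of all genes. The GAS core, searched as TTCNNNGAA, which reads the same on both strands, was found in 7 of the 30 windows (23.3%), against 8.3% of all windows. A match is a description of the letters and not of a bound site. The following stretches run from 25 bases before the first ISRE core to at most 25 bases after the last one, and stop at the start of the transcript or, for Ifitm3, at the end of the last core. They were picked from genes that hold a core and passed the threshold after HDM in WT or TG (below). Stat2, Rsad2, Gbp7, Gbp3, Oas3 and Trim30a also did both and are not shown. The stretches therefore do not stand for all genes that passed. They run 5′ to 3′ on the strand of the gene, and the capitals mark the ISRE cores.
Isg15 (chr4:156200850-156200921, minus strand): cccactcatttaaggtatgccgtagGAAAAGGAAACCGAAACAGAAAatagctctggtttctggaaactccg
Ifit1 (chr19:34640760-34640838, plus strand): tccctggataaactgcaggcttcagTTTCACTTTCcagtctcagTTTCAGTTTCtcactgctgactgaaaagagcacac
Ifit3 (chr19:34583348-34583441, plus strand): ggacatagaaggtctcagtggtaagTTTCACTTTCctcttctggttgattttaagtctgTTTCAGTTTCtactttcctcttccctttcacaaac
Oas1a (chr5:120907526-120907570, minus strand): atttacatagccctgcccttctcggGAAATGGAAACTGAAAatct
Bst2 (chr8:71537562-71537627, minus strand): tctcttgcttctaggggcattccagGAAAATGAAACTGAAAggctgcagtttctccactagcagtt
Irgm1 (chr11:48871421-48871475, minus strand): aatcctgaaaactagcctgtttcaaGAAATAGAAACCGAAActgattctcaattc
Gbp2 (chr3:142620579-142620638, plus strand): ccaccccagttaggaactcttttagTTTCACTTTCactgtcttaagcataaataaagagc
Igtp (chr11:58199497-58199555, plus strand): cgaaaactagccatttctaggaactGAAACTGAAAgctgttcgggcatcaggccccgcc
Ifitm3 (chr7:141010716-141010767, minus strand): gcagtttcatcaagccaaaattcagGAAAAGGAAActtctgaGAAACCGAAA

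Isg15 held 3 overlapping cores, the first of them 78 bases before the start, and Ifit1, Ifit3, Oas1a, Bst2, Irgm1 and Ifitm3 held 2 each. In Ifitm3 both cores lay just inside the transcript. No ISRE core was found in the windows of Irf7, Irf9, Cmpk2, Ifit2, Oasl1, Oasl2, Ifi44, Xaf1 and Ifi35. The members without a promoter window, Dhx58, Zbp1, Usp18, Mx1, Mx2, Oas2, Iigp1, Rtp4 and Parp14, are not described at this level.

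**Figure D1:**
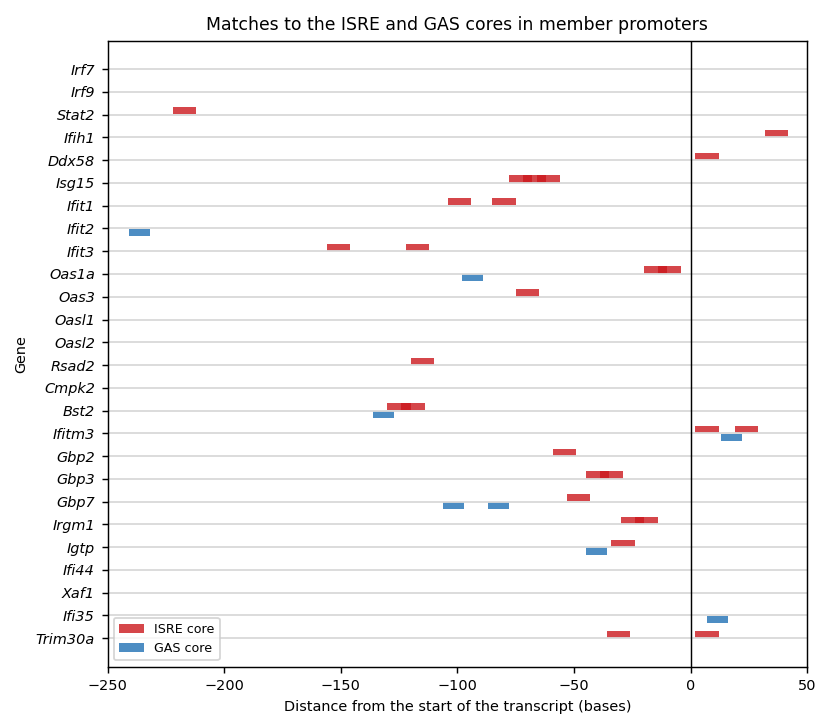
Positions of ISRE cores (red, upper bars) and GAS cores (blue, lower bars) in the promoter windows of 26 genes, in bases from the start of the transcript (black line), with alternative windows of Gbp3, Ifit2, Irf9 and Trim30a drawn on 1 row each. Most of the ISRE cores lie within 160 bases before the start, and that of Stat2, at 222 bases before it, lies farthest away.

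Counts per library came to between 5694928 and 11929374, with the lowest in replicate 1 of TG HDM. Levels are given in CPM, counts scaled to library size with TMM factors over all 8 libraries, and 3 counts in a library are worth 0.232 to 0.450 CPM. Lung genes were high in every library: Sftpc, of alveolar type II cells, lay between 5688 and 15150 CPM, and Scgb1a1, of club cells, between 8950 and 51040 CPM. Ddah1 stood at 47.8 and 34.3 CPM in WT PBS, 77.0 and 53.8 in TG PBS, 43.1 and 44.7 in WT HDM and 34.9 and 33.4 in TG HDM. The genotypes differed by 0.66 ± 0.26 (log2, adjusted p = 0.358) under PBS and by -0.32 ± 0.29 (adjusted p = 0.637) under HDM, so that Ddah1 counts did not separate the genotypes by this test. The species of the transgene is not given in the sources used here, and whether its reads count as mouse Ddah1 was not tested. The treatment groups also differed in sex genes: Xist, expressed from the inactive X chromosome of females, lay between 11.3 and 20.8 CPM in the PBS libraries and between 2049 and 3042 CPM in the HDM libraries, and the Y-linked Ddx3y lay between 58.7 and 69.0 CPM and between 0.179 and 0.302 CPM. HDM and sex therefore cannot be told apart in the comparisons of HDM with PBS in either genotype, nor in the interaction of genotype with HDM. Within each treatment, both genotypes had these sex genes on the same side.

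The first question was whether HDM moved the interferon-stimulated genes in WT lungs. Of the 35 genes, 18 were higher in WT HDM than in WT PBS at an adjusted p under 0.05, and none was lower, where 4.44% of all 15123 genes tested were higher and 2.30% were lower. All 35 genes passed the filter on low counts in all comparisons. Their median log2 fold change was 1.20, beside 0.019 over all genes tested. At an unadjusted p under 0.05, 29 were higher and 0 lower, beside 11.5% and 8.47% of all genes. DESeq2 called 24 higher and 0 lower, beside 865 and 528 of all 15123 genes. Both WT HDM libraries lay above both WT PBS libraries for 32 of the 35 genes and below them for 0, beside 25.0% and 24.7% of all genes. The individual changes ran from 0.13 for Xaf1, a gene of apoptosis, to 3.33 for Irf7.

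TG lungs were compared in the same way. Here 15 of the 35 genes were higher after HDM and none lower, where 8.43% of all 15086 genes tested were higher and 5.35% lower. The median log2 fold change was 1.16, beside 0.031 over all genes. At an unadjusted p under 0.05, 25 were higher and 0 lower, beside 15.8% and 12.0% of all genes. DESeq2 called 16 higher and 0 lower, beside 1476 and 1155 of all 15086 genes. With an offset for transcript length 1 gene, Ifitm3, was lower, at -0.97 (adjusted p = 0.00756). The TG HDM libraries lay above the TG PBS libraries for 29 genes and below them for 0, beside 28.8% and 28.0% of all genes. The changes ran from -0.10 for Ifitm3 to 3.04 for Oas2.

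The genes called in both genotypes numbered 10, which is 55.6% of those called in WT and 66.7% of those called in TG. These were Bst2, Gbp2, Ifi44, Ifit3, Iigp1, Irf7, Oas1a, Oasl2, Usp18 and Zbp1. Another 8 passed in WT and not in TG, and 5 passed in TG and not in WT, but of these only Ifitm3 differed between the genotypes when the difference itself was tested (below). The remaining 12 genes passed in neither.

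**Figure D2:**
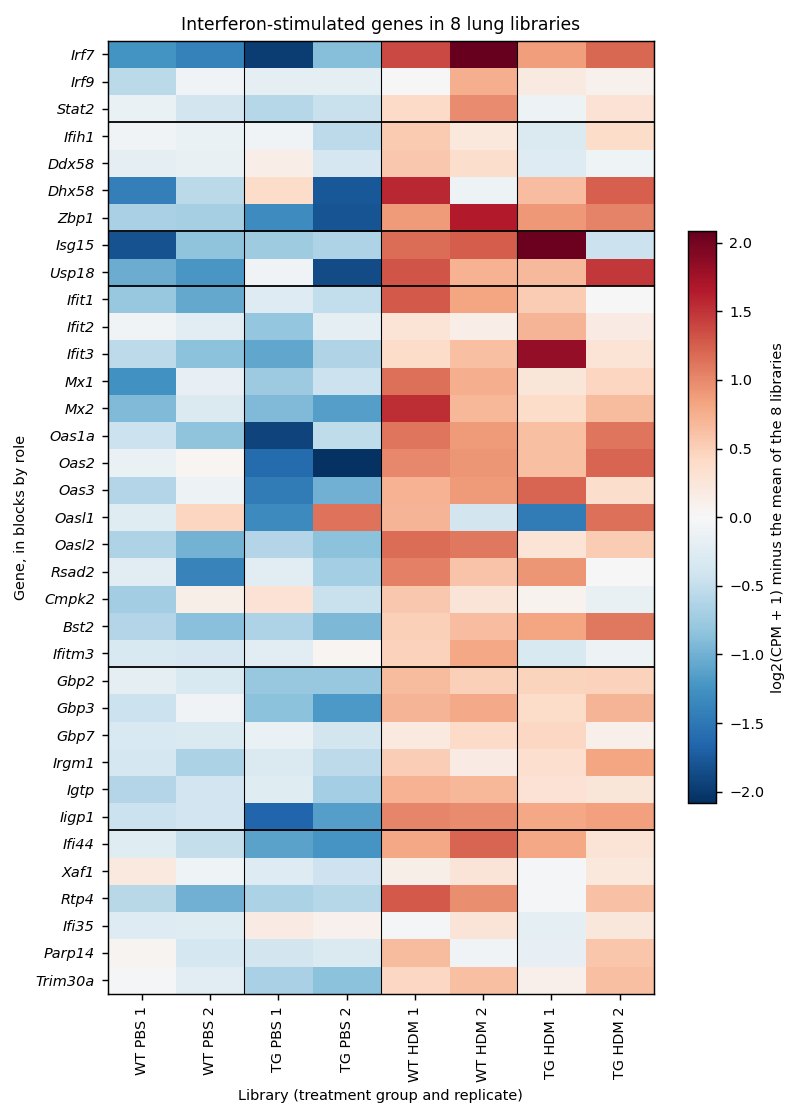
Level of each of the 35 genes (rows, in blocks by role) in each of the 8 libraries (columns), as log2(CPM + 1) minus the mean of the gene over the libraries, with red for higher and blue for lower. The 4 PBS columns on the left are mostly blue and the 4 HDM columns mostly red, while Oasl1, Xaf1, Ifi35 and Cmpk2 show no such split. For Ifitm3 and Ddx58, the TG HDM libraries lie within the range of the PBS libraries.

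Among the signal transducers and transcription factors, 2 of 3 members rose in WT and 1 of 3 in TG. Irf7, which drives interferon-α transcription and is itself induced by interferon, stood at 5.33 and 4.66 CPM in the WT PBS libraries, 2.80 and 7.08 in TG PBS, 37.8 and 62.5 in WT HDM and 26.5 and 33.2 in TG HDM. The 4 HDM libraries all lay above the 4 PBS libraries, with no overlap. Irf7 was higher after HDM by 3.33 ± 0.36 (SE, adjusted p = 4.42e-05) on the log2 scale in WT and by 2.62 ± 0.51 (adjusted p = 0.00577) in TG. Stat2, a subunit of the complex that binds the ISRE, stood at 51.8 and 43.7 CPM in the WT PBS libraries, 37.6 and 41.4 in TG PBS, 76.0 and 115 in WT HDM and 52.9 and 70.5 in TG HDM. The HDM libraries again lay above the PBS libraries of their genotype, by 1.00 ± 0.23 (adjusted p = 0.0179) in WT and 0.66 ± 0.28 (adjusted p = 0.146) in TG, where the TG value did not pass. Irf9, the DNA-binding subunit of the same complex, changed by 0.73 ± 0.32 (adjusted p = 0.226) in WT and 0.36 ± 0.32 (adjusted p = 0.514) in TG and passed in neither.

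The sensors of foreign nucleic acids gave 1 call in each genotype, for the same gene of 4. Zbp1, a sensor of left-handed nucleic acids that can start necroptosis, stood at 8.04 and 7.92 CPM in the WT PBS libraries, 4.79 and 3.17 in TG PBS, 25.8 and 44.1 in WT HDM and 26.1 and 28.5 in TG HDM. It was low in all PBS libraries and several times higher in all HDM libraries, by 2.13 ± 0.37 (adjusted p = 0.00304) in WT and 2.79 ± 0.47 (adjusted p = 0.00235) in TG. Ddx58, which encodes the RNA sensor RIG-I, stood at 55.7 and 57.1 CPM in the WT PBS libraries, 70.5 and 50.0 in TG PBS, 95.2 and 82.5 in WT HDM and 52.6 and 59.6 in TG HDM. The WT HDM libraries lay above the WT PBS libraries while the TG HDM libraries lay between or near the TG PBS libraries, and the changes of 0.66 ± 0.20 (adjusted p = 0.0651) in WT and -0.08 ± 0.28 (adjusted p = 0.894) in TG did not pass. Ifih1, which encodes MDA5, and Dhx58, which encodes LGP2, changed by 0.51 and 2.43 in WT and by 0.40 and 1.60 in TG, with adjusted p between 0.103 and 0.444. Dhx58 was the noisiest of them, with 13.4 and 3.52 CPM in the 2 libraries of WT HDM.

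The ISG15 system, a ubiquitin-like protein and the protease that removes it, had large changes. Isg15, the ubiquitin-like modifier, stood at 1.00 and 2.94 CPM in the WT PBS libraries, 3.19 and 3.49 in TG PBS, 14.8 and 15.9 in WT HDM and 28.0 and 4.18 in TG HDM. The 2 TG HDM libraries differed from each other by more than the TG PBS libraries differed from the lower of them. Isg15 was higher by 2.94 ± 0.60 (adjusted p = 0.00879) in WT and 2.29 ± 0.79 (adjusted p = 0.0760) in TG, and passed in WT. Usp18, the protease that also restrains signalling at the type I receptor, stood at 7.54 and 6.53 CPM in the WT PBS libraries, 15.7 and 3.81 in TG PBS, 42.5 and 28.0 in WT HDM and 27.0 and 47.5 in TG HDM. Its HDM libraries all lay above its PBS libraries, with a wide spread in TG PBS, and it was higher by 2.33 ± 0.37 (adjusted p = 0.00130) in WT and 1.95 ± 0.56 (adjusted p = 0.0387) in TG.

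Antiviral effectors were the largest block, with 7 of 14 members higher in WT and 6 of 14 in TG. Ifit1, which binds viral RNA that lacks a methylated cap, stood at 37.7 and 30.9 CPM in the WT PBS libraries, 54.6 and 46.0 in TG PBS, 160.1 and 117 in WT HDM and 94.7 and 65.5 in TG HDM. The HDM libraries lay above the PBS libraries in both genotypes, with a wider gap in WT, at 2.01 ± 0.22 (adjusted p = 3.59e-05) in WT and 0.70 ± 0.28 (adjusted p = 0.126) in TG. Ifit3, a partner of IFIT1 in the same complex, stood at 33.2 and 26.4 CPM in the WT PBS libraries, 22.4 and 31.1 in TG PBS, 63.5 and 75.3 in WT HDM and 175 and 59.7 in TG HDM. One library, replicate 1 of TG HDM, stood apart from the other 3 HDM libraries, and Ifit3 was higher by 1.22 ± 0.24 (adjusted p = 0.00709) in WT and 2.17 ± 0.43 (adjusted p = 0.00646) in TG. In 51.2% of the 50-base stretches of its transcript Ifit3 is identical to Ifit3b, and reads of the 2 genes cannot be told apart there. Ifit2 changed by 0.37 in WT and 0.99 in TG, and passed in neither.

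The oligoadenylate synthetases make the messenger that activates RNase L. Oas1a stood at 8.75 and 6.45 CPM in the WT PBS libraries, 2.50 and 8.25 in TG PBS, 27.8 and 23.6 in WT HDM and 19.6 and 27.9 in TG HDM. The HDM libraries lay above all PBS libraries, by 1.76 ± 0.39 (adjusted p = 0.0135) in WT and 2.17 ± 0.57 (adjusted p = 0.0275) in TG, and 57.6% of the stretches of Oas1a are shared with Oas1g. Oas2 stood at 16.2 and 18.4 CPM in the WT PBS libraries, 5.19 and 3.49 in TG PBS, 36.6 and 34.4 in WT HDM and 28.2 and 42.6 in TG HDM. The TG PBS libraries were the lowest of the 8, while the 2 HDM groups overlapped, and Oas2 was higher after HDM by 1.03 ± 0.30 (adjusted p = 0.0589) in WT and 3.04 ± 0.44 (adjusted p = 0.00106) in TG. Oas3 stood at 10.9 and 15.8 CPM in the WT PBS libraries, 5.59 and 8.03 in TG PBS, 28.8 and 32.7 in WT HDM and 41.2 and 22.2 in TG HDM, with TG PBS again lowest, and changed by 1.20 ± 0.34 (adjusted p = 0.0520) in WT and 2.24 ± 0.46 (adjusted p = 0.00779) in TG. Oasl2, an OAS-like protein that binds RNA, stood at 50.1 and 39.3 CPM in the WT PBS libraries, 51.5 and 43.3 in TG PBS, 177 and 170.2 in WT HDM and 96.2 and 115 in TG HDM. Oasl2 had the smallest adjusted p of the 35 genes in WT, with no overlap of HDM and PBS libraries, at 1.96 ± 0.18 (adjusted p = 1.11e-05) in WT and 1.17 ± 0.25 (adjusted p = 0.00877) in TG. Oasl1 had at most 5.11 CPM in any library and overlapped between the groups.

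Of the remaining effectors, Rsad2, which encodes viperin, stood at 12.2 and 4.82 CPM in the WT PBS libraries, 11.98 and 8.35 in TG PBS, 30.8 and 22.1 in WT HDM and 28.2 and 14.4 in TG HDM. Its WT PBS libraries differed widely from each other, and the changes of 1.65 ± 0.45 (adjusted p = 0.0450) in WT and 1.09 ± 0.48 (adjusted p = 0.164) in TG passed in WT. Bst2, which encodes tetherin and holds budding virus at the cell surface, stood at 41.3 and 34.6 CPM in the WT PBS libraries, 40.5 and 32.8 in TG PBS, 90.7 and 99.7 in WT HDM and 114 and 138 in TG HDM. It was close to even across the 4 PBS libraries and higher in all 4 HDM libraries, by 1.33 ± 0.21 (adjusted p = 0.00126) in WT and 1.80 ± 0.25 (adjusted p = 7.98e-04) in TG. With an offset for transcript length the TG change of Bst2 was 1.02 (adjusted p = 0.0234), and across genes the change with HDM in TG went with length, at a Spearman correlation of -0.331 over 14352 genes. Ifitm3, a membrane protein that blocks fusion of virus with endosomes, stood at 279 and 272 CPM in the WT PBS libraries, 294 and 358 in TG PBS, 484 and 606 in WT HDM and 277 and 322 in TG HDM. The 2 WT HDM libraries were the highest of the 8 and the other 6 lay between 271.8 and 358.1 CPM. Ifitm3 was higher after HDM by 0.98 ± 0.14 (adjusted p = 3.96e-04) in WT and changed by -0.10 ± 0.19 (adjusted p = 0.785) in TG. Mx1 and Mx2, which are annotated as transcribed pseudogenes in this strain's reference, stayed at or under 14.0 and 12.2 CPM and passed in neither genotype, and Cmpk2, a mitochondrial nucleotide kinase, changed by 0.69 in WT and 0.0096 in TG and passed in neither.

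The guanylate-binding proteins and immunity-related GTPases, which attack the vacuoles of intracellular pathogens and respond strongly to interferon-γ, gave 4 calls of 6 in each genotype. Iigp1 stood at 53.9 and 55.8 CPM in the WT PBS libraries, 22.8 and 32.6 in TG PBS, 149 and 146 in WT HDM and 129.8 and 133 in TG HDM. Its 4 HDM libraries lay close together and far above the PBS libraries, of which TG PBS were lower, and it was higher by 1.43 ± 0.17 (adjusted p = 1.23e-04) in WT and 2.27 ± 0.27 (adjusted p = 2.50e-04) in TG. Igtp, which encodes IRGM3, stood at 35.3 and 40.6 CPM in the WT PBS libraries, 45.03 and 32.9 in TG PBS, 90.02 and 87.9 in WT HDM and 67.3 and 64.5 in TG HDM, and was higher by 1.23 ± 0.21 (adjusted p = 0.00242) in WT and 0.78 ± 0.28 (adjusted p = 0.0912) in TG, passing in WT. Irgm1 stood at 22.9 and 18.5 CPM in the WT PBS libraries, 24.0 and 20.2 in TG PBS, 43.2 and 33.9 in WT HDM and 38.5 and 53.5 in TG HDM. Its HDM libraries lay above all its PBS libraries, by 0.89 ± 0.30 (adjusted p = 0.0977) in WT and 1.08 ± 0.32 (adjusted p = 0.0458) in TG, and it passed in TG.

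Gbp2 stood at 43.9 and 39.7 CPM in the WT PBS libraries, 28.5 and 28.3 in TG PBS, 79.5 and 70.9 in WT HDM and 69.1 and 69.9 in TG HDM. Both TG HDM libraries lay just below both WT HDM libraries, all 4 lay above the PBS libraries, of which TG PBS were lower, and the changes were 0.85 ± 0.22 (adjusted p = 0.0313) in WT and 1.31 ± 0.28 (adjusted p = 0.00862) in TG. Gbp3 stood at 14.7 and 19.4 CPM in the WT PBS libraries, 10.9 and 8.35 in TG PBS, 34.0 and 36.1 in WT HDM and 26.8 and 34.1 in TG HDM. Its group means had the same order, but its TG HDM and WT HDM libraries overlapped. The change of 1.04 ± 0.31 (adjusted p = 0.0663) in WT did not pass, while that of 1.68 ± 0.40 (adjusted p = 0.0160) in TG did. Gbp7 stood at 86.2 and 86.9 CPM in the WT PBS libraries, 97.0 and 82.6 in TG PBS, 124 and 141 in WT HDM and 146 and 115 in TG HDM. With a change of 0.62 ± 0.17 (adjusted p = 0.0437) it had the smallest change of the called genes in WT, and in TG it changed by 0.57 ± 0.23 (adjusted p = 0.133).

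The 6 other induced genes gave 2 calls in each genotype. Ifi44, a cytoplasmic protein of the response, stood at 18.8 and 15.8 CPM in the WT PBS libraries, 9.88 and 9.09 in TG PBS, 40.4 and 53.6 in WT HDM and 40.2 and 27.7 in TG HDM. HDM libraries were higher throughout, by 1.44 ± 0.29 (adjusted p = 0.00838) in WT and 1.86 ± 0.40 (adjusted p = 0.00908) in TG. Rtp4, a receptor chaperone, stood at 20.5 and 15.1 CPM in the WT PBS libraries, 19.3 and 20.4 in TG PBS, 76.9 and 62.1 in WT HDM and 30.6 and 48.2 in TG HDM. The WT HDM libraries were the highest, and Rtp4 was higher by 1.97 ± 0.27 (adjusted p = 3.84e-04) in WT and 1.01 ± 0.35 (adjusted p = 0.0766) in TG, passing in WT. Trim30a, a tripartite-motif protein that dampens inflammatory signalling, stood at 56.8 and 49.9 CPM in the WT PBS libraries, 36.1 and 31.8 in TG PBS, 79.4 and 91.2 in WT HDM and 62.9 and 91.2 in TG HDM. The order from TG PBS to WT PBS to the HDM groups was without overlap between PBS and HDM, and the changes were 0.68 ± 0.20 (adjusted p = 0.0646) in WT and 1.20 ± 0.29 (adjusted p = 0.0164) in TG, passing in TG. Xaf1, Ifi35 and Parp14, an ADP-ribosyltransferase, changed by 0.13, 0.40 and 0.49 in WT and by 0.48, -0.073 and 0.61 in TG, and none of them passed.

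**Figure D3:**
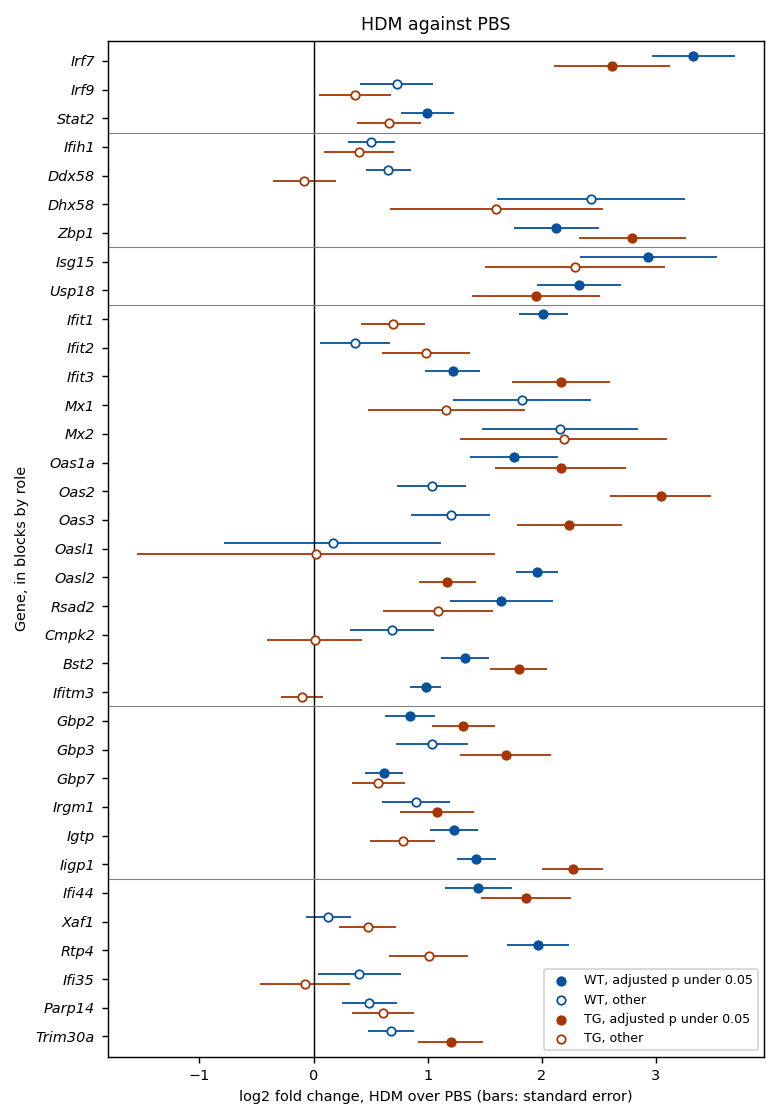
Log2 fold change of HDM over PBS for each of the 35 genes (rows, in blocks by role) in WT (blue) and TG (brown) lungs, with bars for the standard error and filled points for an adjusted p under 0.05. In WT all 35 points lie to the right of 0, from 0.13 to 3.33, and in TG they run from -0.10 to 3.04.

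The calls differed in how far they depended on single libraries. In WT, 11 of the 18 genes remained past the threshold with each library left out in turn: Bst2, Ifit1, Ifitm3, Igtp, Iigp1, Irf7, Isg15, Oasl2, Rtp4, Usp18 and Zbp1. Without WT PBS replicate 2, Ifit3, Ifi44, Oas1a, Rsad2, Stat2, Gbp2 and Gbp7 no longer passed, and fewer of all genes passed as well. Stat2 and Gbp7 also failed without WT HDM replicate 2, Gbp2 without WT HDM replicate 1, and Gbp2 and Gbp7 without WT PBS replicate 1, with adjusted p from 0.0579 to 0.277 over these losses. In TG, only Iigp1 and Oas2 of the 15 remained with each library left out. Without TG PBS replicate 1, 5 genes passed, and without TG PBS replicate 2, 4 did. The TG calls of Irf7, Oas1a, Oas3, Oasl2, Ifit3, Ifi44, Gbp2, Gbp3, Irgm1 and Trim30a were lost without the first, those of Bst2, Zbp1, Usp18, Oas3, Oasl2, Ifit3, Ifi44, Gbp2, Gbp3, Irgm1 and Trim30a without the second. Oas3 was also lost without TG HDM replicate 1, and Oas1a, Usp18, Irgm1 and Trim30a without TG HDM replicate 2, with adjusted p from 0.0520 to 0.308 over the TG losses. Some calls that passed also moved in size. The WT change of Isg15 was 3.91 without WT PBS replicate 2 and that of Rsad2 was 2.46 without WT PBS replicate 1. In TG, Irf7 changed by 3.43 without TG PBS replicate 2, and Ifit3 by 1.16 without TG HDM replicate 1. Without TG PBS replicate 1 and 2 in turn, Oas1a changed by 1.54 and 3.26 and Usp18 by 3.30 and 1.27. With all 8 libraries in 1 fit, Gbp2, Ifit3, Gbp7 and Rsad2 missed the threshold in WT (adjusted p from 0.0517 to 0.0959), and with an offset for transcript length Irgm1, Usp18 and Oas1a missed it in TG (0.0576 to 0.0811).

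The share of genes with an ISRE core was also counted among called and other genes, as a description. Of the genes higher in WT, 14 had a promoter window and 11 of these held an ISRE core, beside 6 of 12 among the genes not called. In TG the numbers were 8 of 11 and 9 of 15. Irf7, the gene with the largest change in WT, and Oasl2, the one with the smallest p, had no ISRE core in their promoter windows.

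Markers of immune cells moved with HDM as well. The calls of all marker lists here stand beside 4.44% of all genes higher and 2.30% lower in WT, and 8.43% and 5.35% in TG. The summed level of Ptprc, Itgb2 and Laptm5, expressed by all leukocytes, was 484 to 505 CPM in WT PBS, 282 to 349 in TG PBS, 908 to 918 in WT HDM and 922 to 985 in TG HDM, and 3 of 3 were higher after HDM in both genotypes. The 3 B cell genes Cd79a, Cd79b and Ms4a1 summed to 84.0 to 116, 40.2 to 56.5, 279 to 341 and 232 to 367 CPM in the same order, and 3 of 3 were higher in both. Of 7 genes of monocytes and macrophages, 3 were higher in WT and 5 in TG, with sums of 247 to 256, 185 to 197, 435 to 437 and 409 to 463 CPM. Marco went the other way, from a mean of 7.919 to 1.575 CPM with HDM in WT and from 2.963 to 1.098 in TG. Siglecf fell in WT, from 12.14 to 8.533 CPM, and rose in TG, from 10.3 to 14.1. Neither passed. T cell genes summed to 62.7 to 72.6, 33.2 to 39.1, 95.8 to 98.2 and 93.0 to 120 CPM, with 0 of 6 higher in WT and 3 of 6 in TG. NK cell genes summed to 13.7 to 40.8 CPM over all libraries, with 0 of 5 higher in WT and 1 of the 4 tested in TG. Genes of plasmacytoid dendritic cells, the main source of interferon-α in blood, summed to 194 to 265 CPM, with Tcf4 alone at 153 to 243 CPM. Of these, 1 of the 4 tested in WT and 1 of 5 in TG was higher, Ly6d in both, a gene that B cells share. In bulk lung RNA, more cells of a type and more RNA per cell cannot be told apart. Other lists went down or differed between the genotypes. Of 7 neutrophil genes, 4 were lower and none higher after HDM in WT, with sums of 431 to 451 CPM in WT PBS and 214 to 220 in WT HDM, while in TG 1 was higher and none lower, with sums of 186 to 210 and 226.1 to 238.1 CPM. Of 6 thymocyte genes, 4 were lower in WT, and none of the 2 tested in TG passed. All 5 skeletal muscle genes were higher in WT, and 2 were lower in TG. Of 7 genes of lung epithelium and endothelium, 1 was higher and 2 lower in WT, and 3 were lower in TG. Scgb1a1 among them stood at 27110 and 34180 CPM in WT PBS, 33050 and 51040 in TG PBS, 10230 and 12120 in WT HDM and 8950 and 12620 in TG HDM. The part of these cells in the changes of the interferon-stimulated genes was not tested.

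The second question was whether the genotypes differed. Under PBS, edgeR called none of the 35 genes higher and none lower in TG than in WT, where 0.281% of all 14926 genes tested were higher and 0.375% lower. At an unadjusted p under 0.05, 1 was higher and 5 lower, beside 4.75% and 5.23% of all genes. DESeq2 called 0 higher and 2 lower, beside 102 and 121 of all 14926 genes. The median was -0.029, beside 0.00079 over all genes, and TG libraries lay above the WT libraries for 4 genes and below them for 11, beside 20.0% and 20.4% of all genes. Oas2 was the farthest down, at -1.999 ± 0.48 (SE, adjusted p = 0.0700), with 16.2 and 18.4 CPM in WT PBS against 5.19 and 3.49 in TG PBS. DESeq2, the fit without a low-count filter and the fit of all 8 libraries put Oas2 past the threshold, with adjusted p of 0.00938, 0.0101 and 0.0169, as did the omission of TG PBS replicate 1 (adjusted p = 0.00462). Iigp1 came next, with 53.9 and 55.8 CPM against 22.8 and 32.6, at -0.9991 ± 0.27 (adjusted p = 0.119). The same fits gave it adjusted p of 0.0350, 0.0271 and 0.0477, and the omission of TG PBS replicate 2 one of 0.0133.

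Another 4 genes had the next smallest p under PBS. Trim30a, Ifi44 and Gbp2 were lower in both TG PBS libraries than in both WT PBS libraries, by -0.66 ± 0.25 (adjusted p = 0.340), -0.87 ± 0.41 (adjusted p = 0.499) and -0.57 ± 0.27 (adjusted p = 0.5001) on the log2 scale, and did not pass. Ifit1 was higher in both TG PBS libraries, by 0.54 ± 0.26 (adjusted p = 0.501), and did not pass either. Among the markers under PBS, all 3 leukocyte genes lay lower in TG and 2 of them passed, 3 of 7 neutrophil genes passed lower, with sums of 431 to 451 CPM in WT PBS and 186 to 210 in TG PBS, and 2 of 6 thymocyte genes passed lower. Of 6 T cell genes 1 passed lower, and none passed of the B cell, NK cell, plasmacytoid dendritic cell and monocyte lists. All 7 genes of lung epithelium and endothelium lay higher in TG, and 1 passed. Over all genes tested under PBS, 0.281% passed higher and 0.375% lower. Under HDM, no gene of the marker lists passed between the genotypes, beside 1.84% higher and 0.599% lower of all genes. Rag1, which only developing lymphocytes use, was at 19.0 and 30.3 CPM in WT PBS, at 0 counts in both WT HDM libraries and at or under 1.05 CPM in the other 4. The 5 skeletal muscle genes summed to 2.71 and 6.29 CPM in WT PBS, 160.5 to 187.6 in TG PBS, 93.9 to 96.0 in WT HDM and 46.5 to 50.7 in TG HDM. The part of these other cells and tissues in the genotype differences was not tested.

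Under HDM, 1 of the 35 genes differed between the genotypes. None was higher in TG, by edgeR, by DESeq2 or at an unadjusted p under 0.05, and 1 was lower, where 1.84% of all 15191 genes tested were higher and 0.599% lower. DESeq2 called 2 lower, beside 590 higher and 332 lower of all 15191 genes. At an unadjusted p under 0.05, 5 were lower, where 9.37% of all genes were higher and 6.87% lower. The median was -0.13, beside 0.010 over all genes, and TG libraries lay above the WT libraries for 1 gene and below them for 14, beside 23.2% and 25.0% of all genes. The gene was Ifitm3, with 276.9 and 322.4 CPM in TG HDM against 483.5 and 606.4 in WT HDM, at -0.83 ± 0.19 (SE, adjusted p = 0.0402). Without WT HDM replicate 1 or 2 Ifitm3 no longer passed, at changes of -0.9999 and -0.65. Each of these fits leaves 1 library in WT HDM, and few of all genes tested passed in them. Across genes, this comparison was tied to transcript length, with a Spearman correlation of -0.281 between log2 fold change and length over 14455 genes, so that shorter transcripts tended to be higher in TG HDM. The offset for length left 106 genes higher and 57 lower of all those tested, in place of 279 and 91. Ifitm3, with the shortest transcript of the members (0.678 kb), lay on the other side, and with an offset for length its change was -1.41 (adjusted p = 0.00524).

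The next genes by p under HDM were all lower in both TG libraries than in both WT libraries and did not pass. Oasl2 stood at 96.2 and 114.7 CPM in TG HDM against 177.1 and 170.2 in WT HDM, at -0.68 ± 0.20 (adjusted p = 0.115), and DESeq2 gave an adjusted p of 0.0287. Ifit1 changed by -0.75 ± 0.26 (adjusted p = 0.168), with an adjusted p of 0.0386 without a low-count filter and 0.00550 without TG HDM replicate 1. Rtp4, Ddx58 and Stat2 changed by -0.78 ± 0.30 (adjusted p = 0.217), -0.62 ± 0.24 (adjusted p = 0.225) and -0.59 ± 0.27 (adjusted p = 0.314). Without TG HDM replicate 2, which leaves 1 shallow library in that group, Oasl2 and Rtp4 passed lower (adjusted p = 0.0140 and 0.0169) and Ifit3 passed higher, at 1.39 (adjusted p = 1.92e-06).

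**Figure D4:**
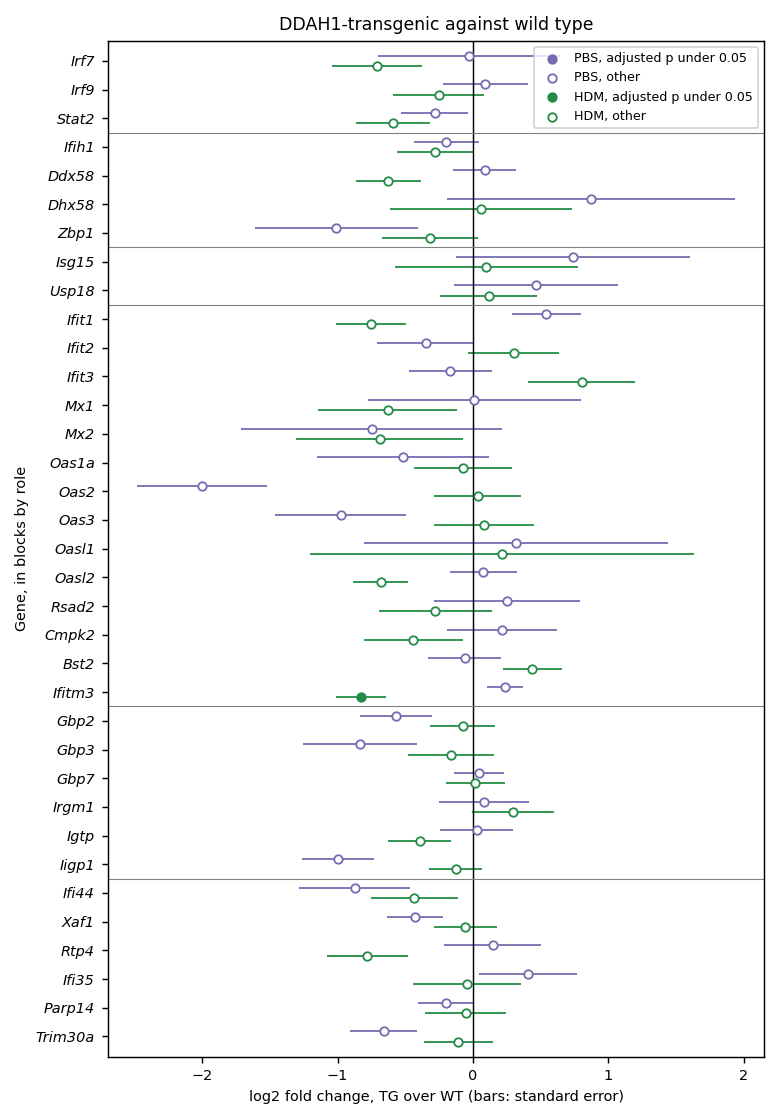
Log2 fold change of TG over WT for each of the 35 genes (rows, in blocks by role) under PBS (purple) and under HDM (green), with bars for the standard error and filled points for an adjusted p under 0.05. The only filled point is Ifitm3 under HDM, at -0.83, and Oas2 under PBS, at -1.999, lies farthest from 0.

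The third question was whether the genotype difference itself changed with HDM. In the test of that interaction on all 8 libraries, none of the 35 genes passed upwards and 1, Ifitm3, passed downwards, where 1.05% and 0.706% of all 15868 genes did. At an unadjusted p under 0.05, 2 genes lay higher and 5 lower, beside 7.62% and 7.05% of all genes. DESeq2 called 1 higher and 2 lower, beside 366 and 314 of all 15868 genes. Ifitm3 had a difference of -1.11 ± 0.23 (SE, adjusted p = 0.0170). The adjusted p was 0.0716, 0.0910, 0.0826 and 0.103 without WT PBS replicate 1, WT PBS replicate 2, WT HDM replicate 2 and TG PBS replicate 2. Oas2, at 1.99 ± 0.51 (adjusted p = 0.0572), and Ifit1, at -1.35 ± 0.35 (adjusted p = 0.0586), missed the threshold, and DESeq2 put both past it, with adjusted p of 0.00791 and 0.0144. Both also passed without a low-count filter and without TG HDM replicate 1. Iigp1, Oasl2 and Ddx58 followed, at 0.82 ± 0.30 (adjusted p = 0.201), -0.81 ± 0.30 (adjusted p = 0.204) and -0.76 ± 0.34 (adjusted p = 0.306).

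**Figure D5:**
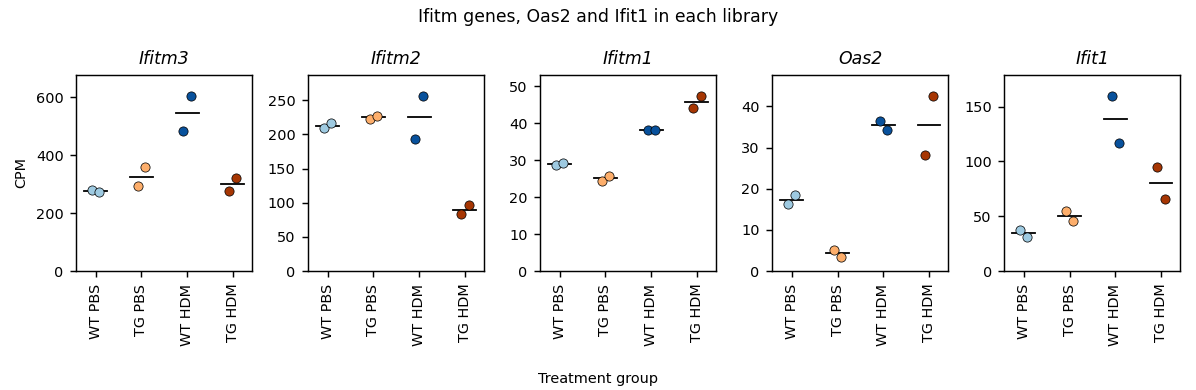
CPM of Ifitm3, Ifitm2, Ifitm1, Oas2 and Ifit1 in each library (points) by treatment group, with the group mean as a line and each axis starting at 0. Ifitm3 is highest in WT HDM, Ifitm2 is low in TG HDM at 83.5 and 96.3 CPM, and Oas2 is low in TG PBS.

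Within the Ifitm family the members moved differently. Ifitm2, a close relative of Ifitm3, stood at 209 and 216 CPM in the WT PBS libraries, 222 and 227 in TG PBS, 194 and 257 in WT HDM and 83.5 and 96.3 in TG HDM. The 2 TG HDM libraries lay below all other 6, and TG differed from WT by -1.29 ± 0.22 (adjusted p = 0.00998) under HDM and by 0.068 under PBS, with an interaction of -1.40 ± 0.26 (adjusted p = 0.00550). Ifitm1 stood at 28.6 and 29.2 CPM in the WT PBS libraries, 24.4 and 25.8 in TG PBS, 38.2 and 38.2 in WT HDM and 44.0 and 47.4 in TG HDM, lay higher in both HDM groups and passed in no comparison. Ifitm2 was picked by the study from these same libraries and is not independent evidence of its direction. Its call under HDM was lost without either WT HDM library, where few of all genes passed. Its change under HDM was -1.88 with the length offset. Of its stretches, 48.5% are shared with other genes, most of them with the overlapping gene model Gm45717. Per kilobase of transcript, Ifitm3 had the highest level of the 34 members with a length in all 4 groups, at 406 CPM per kb in WT PBS, 481 in TG PBS, 804 in WT HDM and 442 in TG HDM, and Bst2 followed at 48.0, 46.3, 120 and 159. Dhx58, Oasl1 and Mx2 were among the 4 lowest in each group, from 0.508 to 3.83 CPM per kb.

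The rest of the interferon pathway was followed with 98 further genes. Of 20 interferon genes, 17 had 0 counts in all 8 libraries, among them Ifnb1, Ifnl2, Ifnl3 and the 14 Ifna and Ifnab genes, which allows a level of up to 0.232 to 0.450 CPM per library. Such a count says only that these RNAs were not detectable at this depth, and reads that fit several Ifna genes cannot be assigned to 1 of them, as the stretches shared between them ranged from 6.45% to 67.4% of a transcript. Ifng, the type II interferon, had 0 to 5 counts in each WT PBS, TG PBS and WT HDM library and 10 and 38 counts in TG HDM. It differed by 3.10 ± 1.53 (adjusted p = 0.214) between TG HDM and TG PBS and by 4.39 ± 1.72 (adjusted p = 0.229) between TG HDM and WT HDM, and passed in neither. Ifnk lay between 0.150 and 5.81 CPM, and Ifne had 11 counts in TG HDM replicate 1 and 0 in the others.

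The 6 receptor chains were all expressed and edgeR called none of them in any comparison. At an unadjusted p under 0.05, 1 was higher and 1 lower with HDM in WT, 1 higher and 2 lower in TG, 0 under PBS between genotypes, and 1 higher and 2 lower in TG under HDM, where DESeq2 called 1 lower and none elsewhere. In the interaction 1 lay higher. Over all genes the shares at this threshold were 11.5% higher and 8.47% lower with HDM in WT, 15.8% and 12.0% in TG, 9.37% and 6.87% between genotypes under HDM, and 7.62% and 7.05% in the interaction. Ifnar1 ranged from 149.8 to 297.8 CPM and Ifnar2 from 77.6 to 158 CPM. Ifnar1 changed with HDM by -0.30 in WT and -0.52 in TG, Ifnar2 by 0.33 and -0.19, Ifngr1 by -0.56 and -0.55, and Ifngr2 by 0.46 and 0.37.

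Of 19 transducers and regulators, 5 were higher after HDM in WT and 4 in TG, beside 4.44% and 8.43% of all genes tested. None was lower, beside 2.30% in WT and 5.35% in TG. Irf1, an interferon-induced transcription factor, changed by 0.065 and 0.44 and passed in neither. Sting1, the adaptor of cytosolic DNA sensing, Tlr7, an endosomal receptor for RNA, and Irf8, a factor of myeloid and B cells, were higher in both genotypes, by 2.24, 1.17 and 1.14 in WT and 2.00, 1.35 and 2.48 in TG. Jak2 and Irf5 passed in WT, at 0.73 ± 0.17 (adjusted p = 0.0166) and 1.59 ± 0.42 (adjusted p = 0.0363). Tlr9, an endosomal receptor for DNA, stood at 11.7 and 8.49 CPM in the WT PBS libraries, 1.70 and 1.69 in TG PBS, 16.5 and 26.8 in WT HDM and 27.4 and 23.2 in TG HDM. It was lowest in TG PBS, was higher after HDM in TG by 3.91 ± 0.52 (adjusted p = 5.54e-04), and had an interaction of 2.78 ± 0.63 (adjusted p = 0.0278). The 4 HDM libraries overlapped, and the interaction was lost without any of 5 libraries. The TG calls of Sting1, Tlr7 and Irf8 were lost without either TG PBS library. The change of Sting1 in WT was 2.93 without WT PBS replicate 2, and that of Irf8 in TG was 1.71 without TG HDM replicate 2. In WT, the call of Tlr7 was lost without WT PBS replicate 1, that of Jak2 without either WT PBS library, that of Irf8 without WT PBS replicate 1 or WT HDM replicate 2, and that of Irf5 without any of these 3.

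Of 53 other interferon-induced genes, 21 were higher and 2 lower after HDM in WT, beside 4.44% and 2.30% of all genes tested. Of the 51 tested in TG, 24 were higher and 1 lower, beside 8.43% and 5.35%. The median changes of this list were 0.89 in WT and 1.35 in TG, beside 0.019 and 0.031 over all genes. Ifi27l2a, a small mitochondrial protein, stood at 4.52 and 11.2 CPM in the WT PBS libraries, 7.19 and 5.39 in TG PBS, 44.0 and 61.0 in WT HDM and 111 and 133 in TG HDM. It had the largest rise of them in both genotypes, by 2.73 ± 0.40 (adjusted p = 6.50e-04) in WT and 4.29 ± 0.31 (adjusted p = 6.18e-06) in TG, and was higher in TG than in WT under HDM by 1.25 ± 0.25 (adjusted p = 0.0240), a call lost without either WT HDM library and with the length offset, where the change was 0.54. Few of all genes passed between the genotypes under HDM without either WT HDM library. Without WT PBS replicate 2 the change of Ifi27l2a in WT was 3.52, and with the length offset its change in TG was 3.27. The chemokine Cxcl9, which draws T cells to sites of interferon-γ, stood at 36.9 and 28.0 CPM in the WT PBS libraries, 16.6 and 9.41 in TG PBS, 98.9 and 106 in WT HDM and 189 and 164 in TG HDM. It was lowest in TG PBS and highest in TG HDM, changed by 1.66 ± 0.22 (adjusted p = 2.68e-04) in WT and 3.79 ± 0.31 (adjusted p = 1.77e-05) in TG with HDM, and had an interaction of 2.10 ± 0.36 (adjusted p = 0.00349), which held with each library left out. Cxcl10, its relative, was higher by 2.37 ± 0.34 (adjusted p = 5.35e-04) in WT and 3.56 ± 0.48 (adjusted p = 5.99e-04) in TG. Ifi30, a lysosomal thiol reductase, changed by 2.23 and 2.16, Lgals3bp by 1.74 and 1.45, and the peptide transporter gene Tap1 by 1.03 and 1.82, and all 3 passed in both genotypes. The calls of Tap1 were lost without WT PBS replicate 2, WT HDM replicate 1 or either TG PBS library, that of Ifi30 in TG without TG PBS replicate 2 (2.80 without TG PBS replicate 1 and 1.51 with the length offset), and that of Lgals3bp in TG without TG PBS replicate 1.

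The genes of this list that went down were few. Trim30b and Slfn5 were lower after HDM in WT, by -2.07 ± 0.50 (adjusted p = 0.0235) and -0.52 ± 0.14 (adjusted p = 0.0405), and both calls were lost without either WT PBS library, that of Slfn5 also without WT HDM replicate 1. Ifitm2 was lower in TG, by -1.30 ± 0.20 (adjusted p = 0.00157), a call lost without either TG PBS library, and with the length offset by -2.18. Under PBS, 0 of the 52 genes tested were higher in TG and 3 lower, beside 0.281% and 0.375% of all genes. At an unadjusted p under 0.05, 0 were higher and 12 lower, beside 4.75% and 5.23%. DESeq2 called 0 higher and 6 lower, beside 102 and 121 of all 14926 genes. The median of the 52 genes was -0.32. Both TG libraries lay above the WT libraries for 2 genes and below them for 31, beside 20.0% and 20.4% of all genes. Under HDM 1 of 52 was higher in TG, Ifi27l2a, and 1 lower, Ifitm2, beside 1.84% and 0.599% of all genes. The median there was -0.25. Under PBS, Tgtp1 and Tgtp2, GTPases that share most of their stretches and cannot be told apart, were lower in TG by -1.04 ± 0.22 (adjusted p = 0.0259) and -1.02 ± 0.21 (adjusted p = 0.0245), and Trim30b by -4.26 ± 0.64 (adjusted p = 0.00156), at 17.99 and 15.4 CPM in WT PBS against 1.30 and 0.423 in TG PBS. The change of Trim30b was -5.27 and -3.67 without TG PBS replicate 1 and 2. The study had picked these 3 genes from the same libraries, and the calls of the Tgtp genes were lost without either WT PBS library. Slfn4, picked as well, stood at -2.77 ± 0.63 (adjusted p = 0.0530) under PBS and did not pass.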

How the data were processed

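RNA-seq was done on lung RNA of WT PBS, WT HDM, TG PBS and TG HDM mice, with 2 libraries from the pooled RNA of 4 mice per group, so that the replicates are technical. The authors made amplified cDNA libraries, used TopHat to align single reads to mm10, counted those within coding regions by gene (ShortRead and their own R programs) and deposited these raw counts for 23469 genes. Versions of TopHat and ShortRead, the gene annotation and the use of strand in counting are not given in the sources used here, so reads of overlapping genes on opposite strands may not be told apart. Gene names came from RefSeq GRCm38.p6 for 23372 genes, and transcript lengths from GENCODE M21 for 21146 genes and 34 of the 35 members (Mx1 had none).

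The 35 members, the further pathway genes and the marker lists were chosen with earlier results of these data known, and some listed genes are not reported here. Each comparison was fitted on its own 4 libraries, and the interaction on all 8, with edgeR 4.0.16 in R 4.3.3 (filterByExpr with a count minimum of 10, TMM normalization, quasi-likelihood F-test, Benjamini-Hochberg adjustment over all genes tested, threshold 0.05). The SE of a log2 fold change was taken as its absolute value over √F. Total counts of 5694928 to 11929374 per library set the precision, and the limit of 3 counts covers counting error only. The members named in a comparison are all those past the threshold, filled up to 6 by the smallest p, and every member is given at least by its count or range. The alternatives were RLE size factors, DESeq2 1.42.0, no low-count filter, a replicate block, an offset for transcript length (loess, span 0.5), that offset with the block, all 8 libraries in 1 fit, and each library left out in turn. For the pathway genes outside the 35 they were added after seeing the data. Sharing was counted for 1 GENCODE M21 transcript per gene, as the share of its 50-base stretches found in transcripts of other genes on either strand.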

Additional observations from a re-analysis of the deposited data

Results flagged for a closer look

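The effect of the transgene differed between HDM and PBS, by the test of that difference on all 8 libraries, for 1 of the 35 genes and 3 of the 80 further pathway genes tested, where 1.05% of all genes tested passed upwards and 0.706% downwards. Ifitm3, the one member of the 35 genes among them, had a genotype effect that was -1.11 (log2, adjusted p = 0.0170) under HDM relative to PBS, and it no longer passed without WT PBS replicate 1, WT PBS replicate 2, WT HDM replicate 2 or TG PBS replicate 2. Its relative Ifitm2 had a difference of -1.40 (adjusted p = 0.00550), which passed with each library left out. The chemokine gene Cxcl9 had one of 2.10 (adjusted p = 0.00349), which passed with each library left out too. The DNA receptor gene Tlr9 had one of 2.78 (adjusted p = 0.0278), which was lost without WT PBS replicate 1, WT HDM replicate 1, TG PBS replicate 1, TG PBS replicate 2 or TG HDM replicate 1. The causes of these differences were not tested, and in this test HDM and sex cannot be told apart.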

How the results depend on the processing

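No named member changed direction under an alternative. Replicate numbers did not pair the libraries, since the deviations of same-numbered libraries from their group means correlated at -0.021 to 0.032, and the replicate block gave 19 members higher after HDM in WT in place of 18. Under PBS, 0 members were lower in TG, but 2 were with DESeq2, with no low-count filter or with all 8 libraries, 1 was with length offset and replicate block, and 0 to 1 were with a library left out. The median there, -0.029, was -0.15 with the replicate block, -0.13 with length offset and block, and -0.19 to -0.11 with a library left out. Under HDM, 1 member was lower in TG, and 2 were with DESeq2 or with no filter, and 0 to 3 with a library left out, while 1 was higher with no filter and 0 to 1 with a library left out. The median of -0.13 was -0.22 with length offset and block and -0.33 to -0.15 with a library left out. After HDM in WT, 11 to 22 members were higher with a library left out, and the median of 1.20 was 1.09 with the length offset, 1.10 with length offset and block and 1.08 to 1.21 with a library left out. In TG, 4 to 16 members were higher with a library left out, and 1 was lower with the length offset, alone or with the block. In the interaction, 1 member was higher with DESeq2 or with no filter, 2 were lower with DESeq2, with no filter, with the block or with length offset and block, and with a library left out 0 to 1 were higher and 0 to 2 lower, while the median of -0.13 took both signs, from -0.21 to 0.20. Over all genes, the calls between genotypes under HDM, 279 higher and 91 lower, became 590 and 332 with DESeq2, 440 and 331 with all 8 libraries and 106 and 57 with the length offset, those under PBS, 42 and 56, became 102 and 121 with DESeq2, 137 and 169 with no filter and 25 and 21 with the block, and those of the interaction, 167 and 112, became 366 and 314 with DESeq2. For the named members, 16 of the 198 alternative values in WT and 31 of the 165 in TG after HDM lost the threshold. With a library left out, 1 group held 1 library, and the calls over all genes moved as well. The causes of these shifts were not tested. Of the 20 interferon genes, 17 had 0 counts and were not detectable at this depth.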
